A study of Homo sapiens with 6 samples.

Results

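The 38 genes described here code for Q-SNAREs, the target-side components of the membrane fusion machinery, and for proteins that run them. They comprise syntaxins, the SNAP25-type proteins, the Golgi and endoplasmic reticulum (ER) Qb and Qc SNAREs, the ATPase NSF with its adaptors, and Sec1/Munc18 and other syntaxin-binding proteins. They were taken as a list of names, and every probe set that the platform annotation gives to one of them alone was used, which made 105 of the 54613 probe sets tested. RNA was measured on 3 arrays after transfection with Vamp7 siRNA (knockdown) and on 3 after transfection with a nonspecific scrambled siRNA (control), in the NTERA2/D1 cell line, which was established from a human testicular teratocarcinoma. Cells of both groups were transfected 24 h after plating and for 72 h. The titles call the arrays of each group biological replicates and number them 1 to 3, but do not say how their cultures were kept apart. The p-values therefore cover only the variation among these arrays.

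SNAREs are short, membrane-anchored coiled-coil proteins. A vesicle and its target membrane fuse when SNARE helices from both sides zip into a bundle that holds a Qa, a Qb, a Qc and an R motif, the letters standing for the glutamine or arginine at its central layer. VAMP7, the siRNA target, is an R-SNARE of late endosomes, lysosomes and secretory vesicles. The Q side is given by syntaxins (Qa), by single-motif Qb and Qc proteins, or by SNAP25-type proteins that carry a Qb and a Qc motif together. After fusion, NSF and its SNAP adaptors pull the spent bundle apart, and Sec1/Munc18 proteins clasp syntaxins and guide assembly. RNA arrays read none of the protein, its assembly or its place in the cell.

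VAMP7 itself fell. Its probe set (202829_s_at) read 137, 175 and 149 intensity units on the knockdown arrays, against 2487, 2617 and 2741 on the control arrays. The lowest control array was above every knockdown array, and the log2 fold change was -3.71 (SE 0.11; adjusted p = 0.000362 in limma). Each array was scaled by the authors to the same trimmed mean, and median intensity ran from 58.8 to 67.5. Knockdown replicate 1 stood furthest from the others (its mean correlation with them was 0.984, where the rest had 0.986 to 0.987), and over the 105 probe sets its median distance from its own group mean was 0.122 on the log2 scale, against 0.0955 to 0.106 for the other 5 arrays. Of the 10 embryonal carcinoma markers 9 were measured, all at or above the median probe set of the array, with a summed intensity of 93074 to 109297 in knockdown and 85549 to 106514 in control. The 8 neuron markers summed to 22891 to 24872 in knockdown and 22891 to 25813 in control. The fibroblast sum, most of it COL1A1, was 2846 to 3443 in knockdown and 2657 to 3068 in control. Within these lists single markers separated by group without passing the test (adjusted p from 0.755 to 0.818 in limma). They were 1 of 9 embryonal carcinoma, 1 of 8 neuron and 1 of 4 fibroblast markers, each on its probe set of highest mean intensity. On such probe sets the groups did not overlap for 13% of all genes. NANOG averaged 3968 in knockdown and 4839 in control, NEFL of neurons 2280 in knockdown and 2565 in control, and LUM of fibroblasts 137 in knockdown and 184 in control. DCN went with LUM (37.5 in knockdown, 40.6 in control). COL1A1 (2872 in knockdown, 2568 in control) and COL1A2 (56.9 in knockdown, 42.3 in control) went the other way. The part of these markers in the results below was not tested. Of the other markers, all 3 measured leukocyte, 2 of 4 fibroblast and 1 of 3 endothelial genes lay below the median, and the leukocyte sum was 35.0 to 148 in knockdown and 52.1 to 97.9 in control. PTPRC, which defines leukocytes, averaged 18.1 in knockdown and 15.4 in control. The endothelial sum, most of it KDR, was 1126 to 1306 in knockdown and 985 to 1098 in control and did not overlap, and its part was not tested either. CDH5, which defines endothelium, averaged 38.5 in knockdown and 42.7 in control. PECAM1 and KDR went the other way, PECAM1 with 121 in knockdown and 85.7 in control and KDR with 1041 in knockdown and 914 in control.

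None of the Q-SNAREs or their regulators passed the test, in either direction. Limma called 0 of the 105 probe sets at an adjusted p under 0.05, where it called 0.00183% of all probe sets, VAMP7 alone. The adjusted p of the 105 ran from 0.608 upward. At an unadjusted p under 0.05 there were 11 of 105, or 10.5%, against 6.62% of all probe sets. Without control replicate 3 there were 6, or 5.71%, against 6.08% of all. Leaving out any other single array gave 9 or 10 (8.57% or 9.52%, against 6.04% to 6.72% of all). Of the 11, 7 were higher in knockdown (4.13% of all probe sets were) and 4 lower (2.48% of all). The groups did not overlap at 14 of the 105, or 13.3%, against 12.4% of all, with 8 higher in knockdown (7.28% of all) and 6 lower (5.15% of all). Log2 fold changes, here always knockdown minus control on the log2(intensity + 50) scale, lay between -0.62 and 0.50 with a median of -0.018, against a median of 0.016 for all probe sets. Each array reads many cells together, so fewer cells with a transcript and less of it per cell cannot be told apart.

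**Figure D1:**
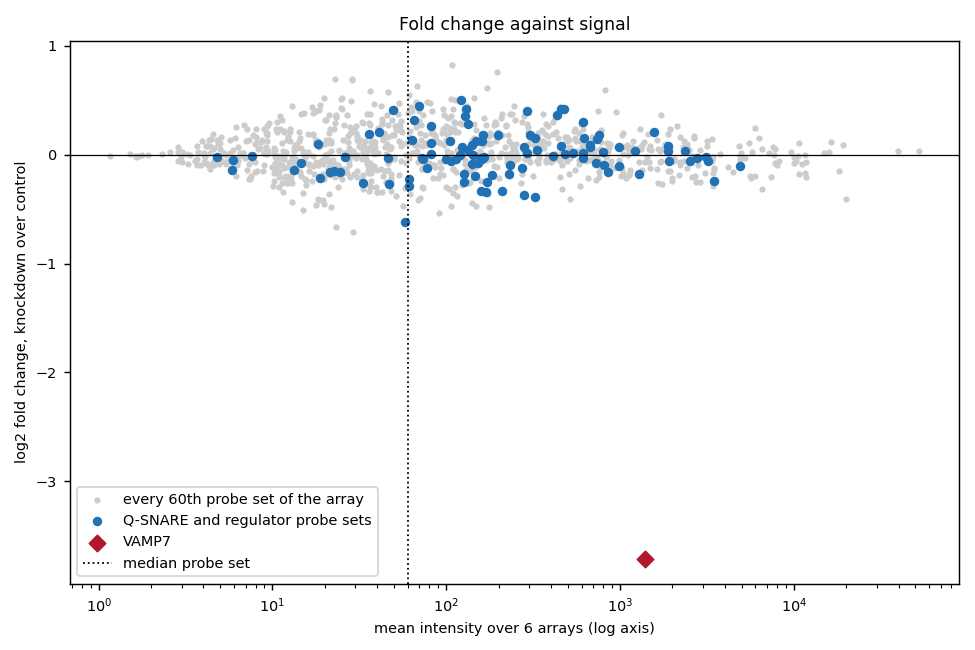
Log2 fold change, knockdown over control, against the mean intensity of the 6 arrays on a log axis, with 105 Q-SNARE and regulator probe sets in blue, every 60th probe set of the array in grey and VAMP7 as a red diamond. The blue points lie between -0.62 and 0.50, while VAMP7 lies at -3.71, and the dotted line marks the median probe set.

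The 105 were unevenly shared, with 7 genes on a single probe set and 9 probe sets for GOSR2. For each gene the probe set of highest mean intensity, called the brightest here, was taken to stand for it, and it lay at or above the median probe set, 60.5 units, for 36 of the 38. Over the brightest probe sets, 2 of 38 (NAPB and USE1) had an unadjusted p under 0.05, which is 5.26% against 5.92% of all genes. The other 9 of the 11 came from less bright probe sets of 8 genes. The groups did not overlap for 5 of 38, or 13.2%, against 13% of all genes. Precision was sufficient to bound most changes on the brightest probe sets. The 95% interval of the fold change lay inside 1.5-fold in both directions for 30 of the 36 brightest probe sets at or above the median. That is 83.3%, against 80.9% of such genes on the array, and 35 lay inside 2-fold. Over all 86 member probe sets at or above the median, 62 lay inside 1.5-fold (72.1%, against 75.8% of all such probe sets). A gene bounded on its brightest probe set can thus reach further on another. The interval went up to 1.625 for GOSR1 on 213020_at and to 1.674 for STX6 on 1552618_at. Among the brightest probe sets at or above the median, the following stood out. SNAP25, SNAP29, USE1, NAPB, STXBP2 and STXBP5 were the 6 whose interval reached beyond 1.5-fold, and only that of SNAP29 reached beyond 2-fold. These fold changes are ratios of intensity plus the constant added before taking logs (the offset), which narrows them most for dim probe sets. STXBP5, with a mean intensity of 60.7, had an interval of 0.510 to 1.31. Its log2 fold change was -0.29 here and -0.50 with an offset of 16. The counts inside 1.5-fold and 2-fold therefore hold for this offset, and others were not tested.

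**Figure D2:**
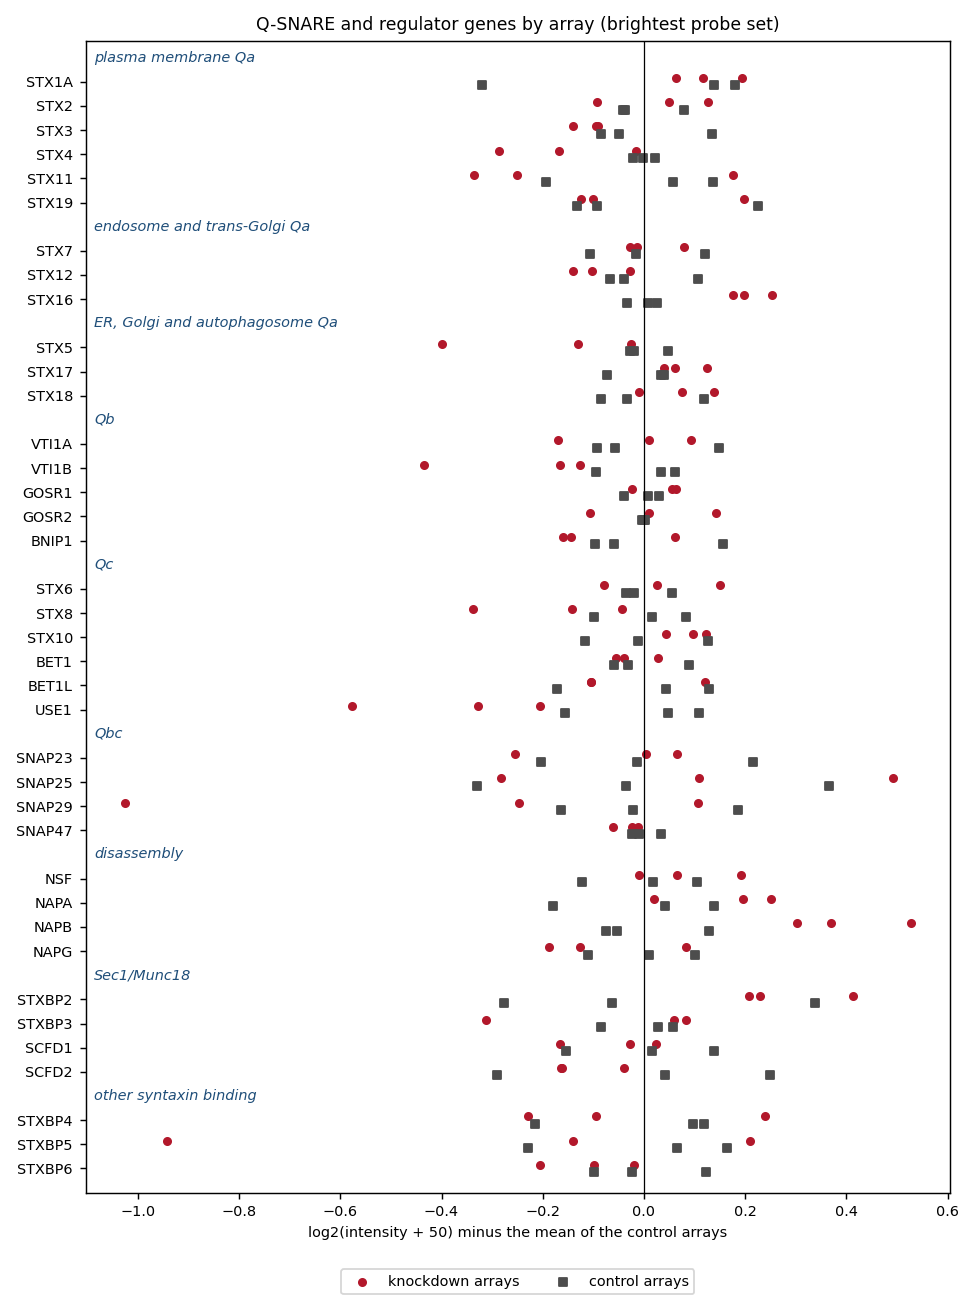
Each of the 38 genes by array on its brightest probe set, as log2(intensity + 50) minus the mean of the control arrays, with knockdown arrays as red circles above control arrays as grey squares in each row, and rows grouped by subfamily. Red and grey points separate for NAPB and STX16 to the right and for USE1, VTI1B and STX3 to the left, and the lone red points near -1 belong to SNAP29 and STXBP5.

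The 9 Q-SNAREs known as partners of VAMP7 were read one by one. At late endosomes VAMP7 pairs with the Qa syntaxin STX7, the Qb SNARE VTI1B and the Qc SNARE STX8. STX7 (212632_at) read 604, 648 and 598 in knockdown, against 668, 564 and 603 in control. The groups overlapped fully, and the log2 fold change was 0.013 (95% interval of the fold change 0.848 to 1.20). A further STX7 probe set (212631_at) was at 0.010, while a dimmer one (203457_at) read 88.7, 107 and 67.4 in knockdown, against 72.2, 35.8 and 45.4 in control. That dimmer probe set overlapped between the groups in its lowest knockdown and highest control array, with a log2 fold change of 0.45 (unadjusted p = 0.0346, adjusted p = 0.743).

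VTI1B (209452_s_at) read 2766, 3345 and 3436 in knockdown, against 3514, 3849 and 3920 in control. All knockdown arrays were below all control arrays, replicate 1 the furthest, with a log2 fold change of -0.24 (SE 0.12, adjusted p = 0.78). When any 1 array was left out it ran from -0.30 to -0.15, the latter without knockdown replicate 1. The remaining probe sets of VTI1B did not share this direction: 225926_at was at 0.18 and 225928_at at 0.020. STX8 (204690_at) read 1073, 1236 and 1326 in knockdown, against 1385, 1276 and 1453 in control. Its groups overlapped in 1 pair of arrays, and the log2 fold change was -0.17 (SE 0.12, adjusted p = 0.841). It ran from -0.24 to -0.093 when any 1 array was left out, the latter without knockdown replicate 1.

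At the plasma membrane VAMP7 can pair with STX3, a syntaxin of apical surfaces, with STX4, known from glucose transporter delivery in fat and muscle, or with STX1A of nerve terminals. STX3 (209238_at) read 4781, 4632 and 4795 in knockdown, against 4812, 4934 and 5615 in control. The groups did not overlap, but the nearest arrays were 4795 and 4812, and the fold change interval was 0.782 to 1.10. Further STX3 probe sets were at -0.015 (216985_s_at) and 0.040 (235483_at) on the log2 scale. STX4 (203530_s_at) read 886, 725 and 792 in knockdown, against 895, 882 and 911 in control. Knockdown replicate 1 lay within the control range, and the log2 fold change was -0.16 (SE 0.11, adjusted p = 0.846), with -0.090 on 229395_at. STX1A (204729_s_at) read 165, 147 and 154 in knockdown, against 101, 163 and 157 in control. The low control replicate 1 set its sign: the log2 fold change was 0.12, and -0.035 without that array.

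**Figure D3:**
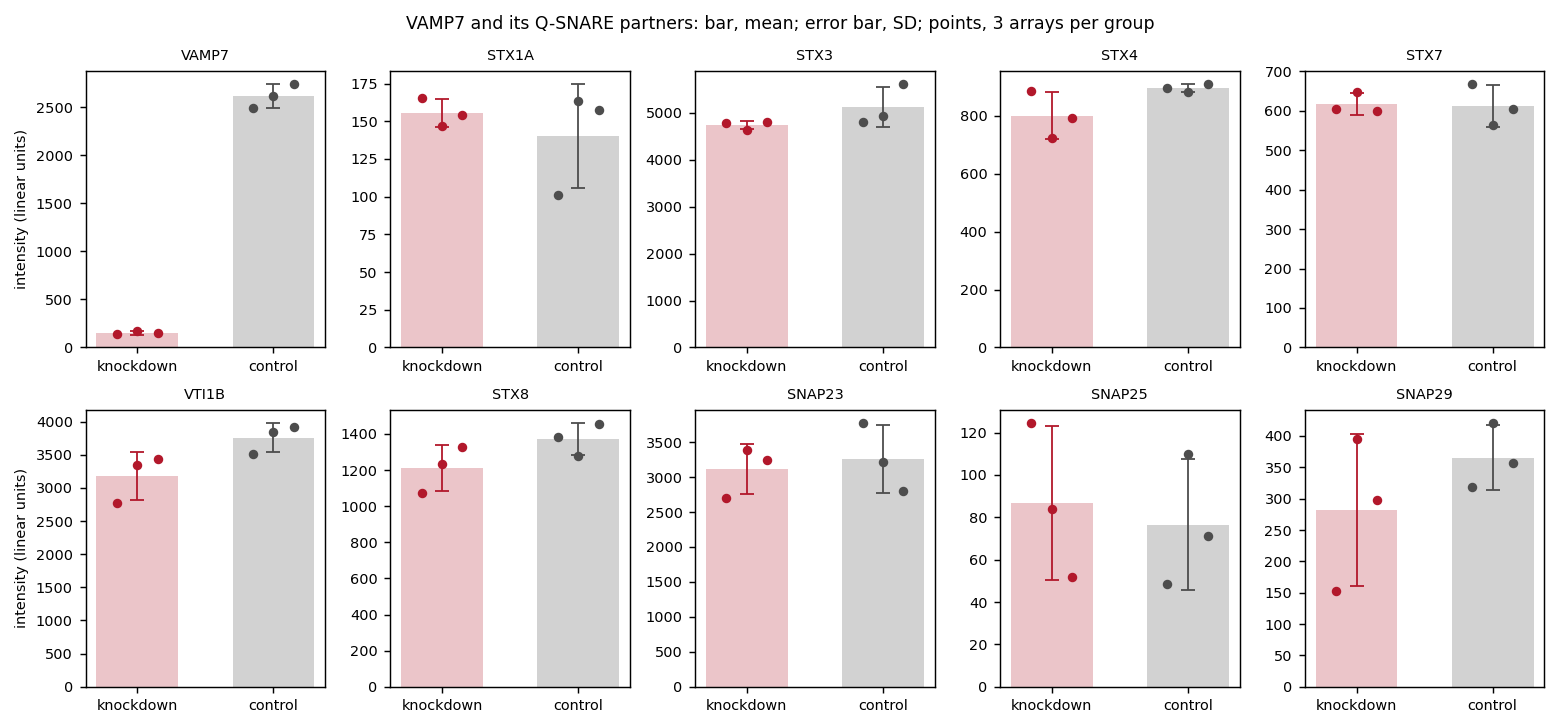
Intensity of VAMP7 and of the brightest probe set of its 9 Q-SNARE partners, with knockdown left of control in each panel, bars for the mean, error bars for the SD and points for the 3 arrays of each group, each axis starting at 0. VAMP7 separates at 154 in knockdown and 2615 in control, while the partner bars differ far less and most of their points overlap.

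The Qbc partners supply a pair of motifs from a single protein. SNAP23, found in most tissues, read 2705, 3391 and 3249 (209130_at) in knockdown, against 3772, 3210 and 2808 in control. The spread of either group covered the other, and the log2 fold change was -0.062, turning to 0.034 without knockdown replicate 1. SNAP25, the neuronal form, gave readings that depended on the probe set. Its brightest (202507_s_at) read 124, 83.7 and 52.0 in knockdown, against 48.7, 110 and 71.1 in control, and the groups overlapped. The dimmer 202508_s_at read 41.3, 40.6 and 23.8 in knockdown, against 62.2, 88.3 and 91.5 in control. Here all knockdown arrays were lower, and this was the smallest p of the 105 (log2 fold change -0.62, SE 0.14, unadjusted p = 0.00358, adjusted p = 0.608). Its mean over the 6 arrays was 58.0, just under the median probe set, and a further SNAP25 probe set (1556629_a_at) read 19.4 in knockdown and 25.9 in control.

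SNAP29, which joins STX17 in the fusion of autophagosomes with lysosomes, was uneven between arrays. Its brightest probe set (218327_s_at) read 153, 395 and 298 in knockdown, against 319, 420 and 357 in control. Knockdown replicate 1 was far below the other 5 arrays. On 222597_at the same array was the highest instead, with 227, 92.2 and 140 in knockdown, against 117, 72.5 and 126 in control. The log2 fold changes were -0.39 (SE 0.28) and 0.35 (SE 0.26). When any 1 array was left out the first ran from -0.64 to -0.070, the latter without knockdown replicate 1, so its size hung on single arrays. SNAP47, a broadly expressed member of the family, read 2690, 2762 and 2782 in knockdown, against 2874, 2789 and 2760 in control. It had the narrowest interval of the Qbc proteins, 0.842 to 1.14 in fold change.

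Of the remaining plasma membrane syntaxins, STX2 was at 0.028 (213434_at) and -0.18 (207346_at) on the log2 scale. STX11, which acts in granule release by lymphocytes, read 5.21, 24.2 and 2.06 in knockdown, against 7.46, 18.4 and 22.2 in control. STX19 read 3.59, 15.8 and 2.69 in knockdown, against 17.1, 3.81 and 2.43 in control. These values lie far under the offset of 50, so the plotted differences of STX11 and STX19 are not read as changes.

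Among endosomal and trans-Golgi Qa syntaxins STX16, which serves traffic from endosomes to the Golgi, separated by group. It read 1729, 1662 and 1637 (221500_s_at) in knockdown, against 1453, 1471 and 1409 in control. Every knockdown array was higher, and the log2 fold change was 0.21 (SE 0.092, unadjusted p = 0.0593, adjusted p = 0.765), between 0.19 and 0.22 when any 1 array was left out. Of its other probe sets 221499_s_at was at 0.30 and 221638_s_at at 0.32, while 1558249_s_at was at -0.0059. Signal from a transcript that joins STX16 to its neighbour NPEPL1, listed in the reference gene table, cannot be told apart from STX16 here. STX12, of early and recycling endosomes, read 770, 748 and 813 (212111_at) in knockdown, against 806, 790 and 897 in control. The groups overlapped, and its 2 probe sets took opposite signs, -0.091 and 0.15.

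In the ER, the Golgi and on autophagosomes the Qa syntaxins were STX5, STX17 and STX18. STX17, the syntaxin of autophagosomes, was measured by 5 probe sets, and all 5 had a log2 fold change above 0, from 0.071 to 0.50. The brightest (228091_at) read 714, 670 and 682 in knockdown, against 668, 616 and 671 in control. It overlapped only narrowly, with a log2 fold change of 0.075 (SE 0.096, adjusted p = 0.918). A less bright probe set (226662_at) read 534, 466 and 476 in knockdown, against 419, 330 and 365 in control. There the groups did not overlap, with a log2 fold change of 0.37 (SE 0.12, unadjusted p = 0.0182, adjusted p = 0.694). STX5, the Qa SNARE of ER to Golgi transport, read 139, 177 and 194 (203330_s_at) in knockdown, against 207, 194 and 195 in control. Knockdown replicate 1 was the lowest array, and the log2 fold change was -0.18 (SE 0.12, adjusted p = 0.839). It ran from -0.26 to -0.078 when any 1 array was left out, the latter without knockdown replicate 1. STX18, an ER syntaxin of retrograde transport, was at 0.068.

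The ER and Golgi partners of those syntaxins are Qb and Qc SNAREs, and on the brightest probe sets USE1 alone had an unadjusted p under 0.05 among them. USE1, the Qc SNARE that works with STX18 in retrieval to the ER, read 246, 200 and 273 (219348_at) in knockdown, against 351, 284 and 335 in control. All knockdown arrays were lower, with a mean of 240 ± 37.0 in knockdown and 323 ± 35.2 in control (SD, n = 3 each). The log2 fold change was -0.37 (SE 0.14, unadjusted p = 0.0302, adjusted p = 0.732 in limma), from -0.45 to -0.27 when any 1 array was left out. Its second probe set (221706_s_at) read 143, 136 and 174 in knockdown, against 216, 173 and 181 in control. These groups overlapped in 1 pair of arrays, at a log2 fold change of -0.25 (adjusted p = 0.779). BNIP1, the Qb SNARE of the same complex, read 136, 167 and 138 (207829_s_at) in knockdown, against 144, 149 and 181 in control. The groups overlapped, and its 3 probe sets lay between -0.081 and -0.0039.

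GOSR1 and GOSR2, Qb SNAREs of the Golgi, showed how far probe sets of a gene can part. GOSR1 read 1944, 1838 and 1954 (204630_s_at) in knockdown, against 1817, 1908 and 1880 in control. The groups overlapped and the log2 fold change was 0.032 (SE 0.093), with 0.037 on 213021_at. On 213020_at, by contrast, GOSR1 read 571, 601 and 477 in knockdown, against 403, 370 and 418 in control. All knockdown arrays were higher there, at a log2 fold change of 0.42 (SE 0.12, unadjusted p = 0.01, adjusted p = 0.655). The brightest GOSR2 probe set (235041_at) read 265, 291 and 324 in knockdown, against 289, 288 and 289 in control. It overlapped at 0.016 on the log2 scale, and the 9 ran from -0.33 to 0.42, 5 above 0 and 4 below. At the upper end 243880_at read 126, 188 and 154 in knockdown, against 104, 98.8 and 104 in control. The groups did not overlap on that probe set, which had an unadjusted p of 0.0147 and an adjusted p of 0.675.

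STX6, a Qc SNARE of the trans-Golgi network and endosomes, spanned 0.76 between its probe sets, the widest of the 31 genes that had more than 1 (median 0.25). The brightest (212799_at) read 2597, 2210 and 2379 in knockdown, against 2278, 2306 and 2428 in control. These overlapped, at a log2 fold change of 0.032 (SE 0.105). On 1552618_at STX6 read 462, 575 and 560 in knockdown, against 371, 447 and 341 in control, and on 214441_at it read 114, 163 and 155 in knockdown, against 226, 171 and 190 in control. The groups did not overlap on either, yet the first was higher in knockdown (0.42, adjusted p = 0.697) and the second lower (-0.34, adjusted p = 0.753). The Qc SNAREs not described above lay close to 0 on their brightest probe sets: STX10 of the trans-Golgi at 0.087, BET1 of ER to Golgi transport at -0.022, and BET1L, which acts within the Golgi, at -0.030. VTI1A, a Qb SNARE of the trans-Golgi and endosomes, was at -0.022, with 3 of its 6 probe sets above 0 and 3 below.

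**Figure D4:**
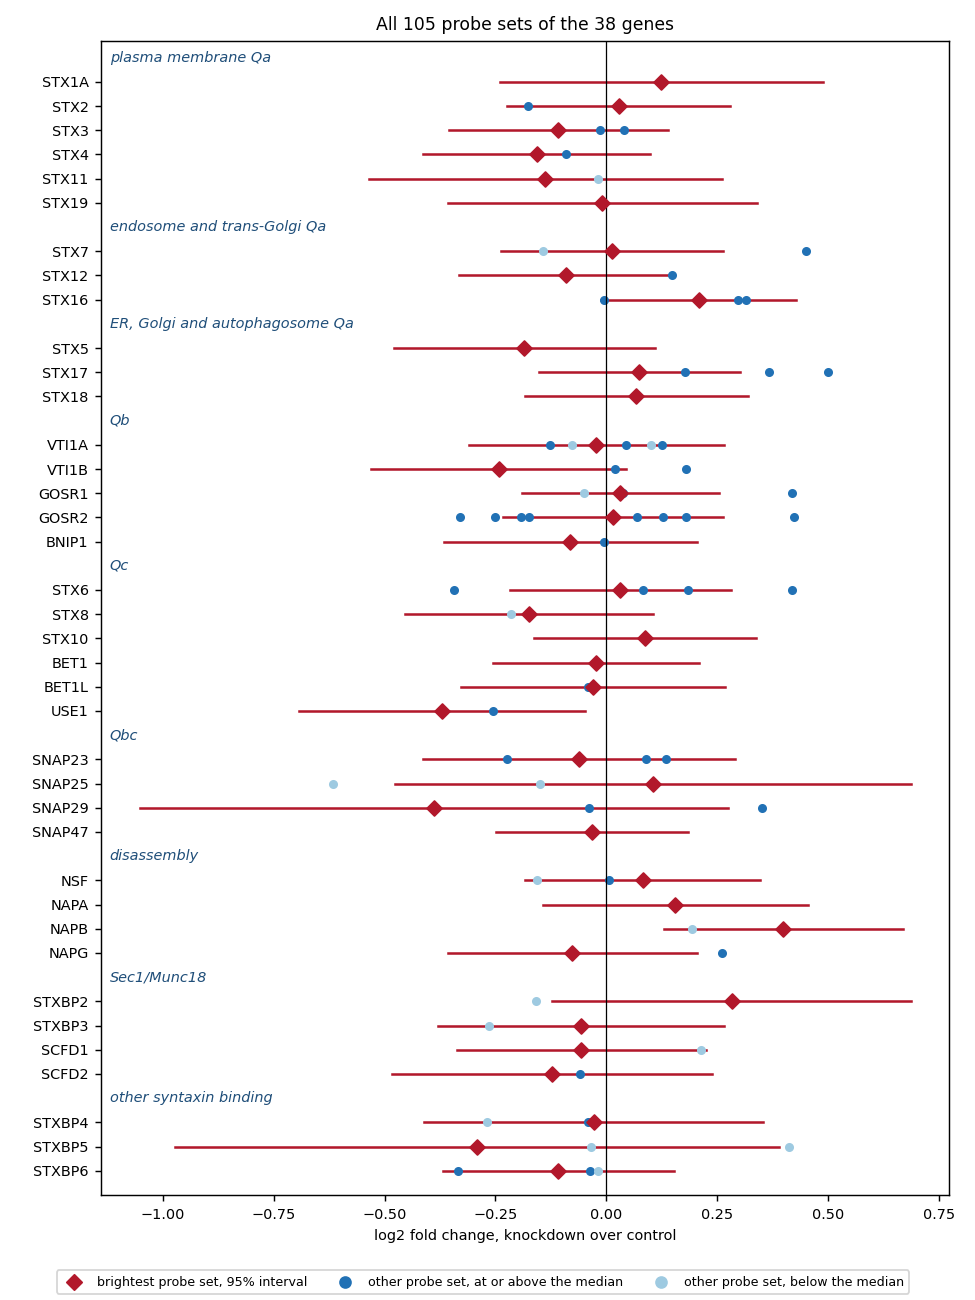
Log2 fold change, knockdown over control, of all 105 probe sets in rows by gene and subfamily, with the brightest of each gene as a red diamond and its 95% interval as a line, others at or above the median probe set in dark blue and below it in light blue. The intervals of NAPB and USE1 alone leave out 0, and the points of STX6, GOSR2, SNAP29, SNAP25 and STXBP5 spread over more than 0.7.

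The disassembly machinery comprises NSF, the ATPase, and the adaptors NAPA, NAPB and NAPG. NAPB, the beta-SNAP best known from brain, read 331, 313 and 375 (225111_s_at) in knockdown, against 272, 230 and 234 in control. Every knockdown array was higher, with a mean of 340 ± 31.8 in knockdown and 245 ± 23.4 in control (SD, n = 3 each), a ratio of 1.39. Its log2 fold change of 0.40 (SE 0.11, unadjusted p = 0.0101, adjusted p = 0.655 in limma) was from 0.34 to 0.46 when any 1 array was left out. The second NAPB probe set (1570441_at) was dim, at 28.0, 25.1 and 69.4 in knockdown, against 18.6, 65.7 and 8.99 in control, and overlapped.

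NAPA, the general alpha-SNAP, read 701, 672 and 590 (206491_s_at) in knockdown, against 599, 644 and 507 in control. The groups overlapped, and both NAPA probe sets had a like log2 fold change, 0.16 and 0.15 (adjusted p = 0.874 and 0.882). When any 1 array was left out the first ran from 0.066, without control replicate 3, to 0.22. NAPG was at -0.077 and, on a dimmer probe set, at 0.26. NSF read 2095, 1916 and 1815 (202395_at) in knockdown, against 1851, 1676 and 1971 in control. It overlapped, at a log2 fold change of 0.082 (fold change interval 0.881 to 1.27). The reference gene table lists a transcribed NSF pseudogene, NSFP1, whose signal cannot be told apart from that of NSF here.

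Sec1/Munc18 proteins bind particular syntaxins. STXBP2, which serves granule release with STX11, read 142, 168 and 139 (209367_at) in knockdown, against 157, 107 and 85.2 in control. Control replicate 1 lay among the knockdown arrays, and the log2 fold change was 0.28 (SE 0.17, adjusted p = 0.822). It was 0.45 without control replicate 1 and 0.14 without control replicate 3. STXBP3, the partner of STX4, read 2045, 2706 and 2661 in knockdown, against 2403, 2657 and 2604 in control. Here too knockdown replicate 1 was lowest, and the log2 fold change of -0.057 became 0.071 without it. SCFD1, which binds STX5, was at -0.057. SCFD2 read 274, 248 and 248 (226923_at) in knockdown, against 293, 223 and 346 in control, a range in control that covered every knockdown array.

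Other syntaxin-binding proteins are STXBP4, an STX4 binder, and STXBP5 (tomosyn) and STXBP6 (amisyn), which carry R-SNARE-like motifs and occupy syntaxins without fusing membranes. STXBP6 read 877, 1003 and 947 (230560_at) in knockdown, against 947, 1000 and 1113 in control. The groups overlapped, at -0.11 (SE 0.11). All 4 STXBP6 probe sets lay below 0, among them 220994_s_at with 178, 167 and 190 in knockdown, against 243, 197 and 279 in control. On this probe set all knockdown arrays were lower, at a log2 fold change of -0.34 (unadjusted p = 0.0391, adjusted p = 0.744). STXBP5 read 87.0, 57.5 and 11.7 (235227_at) in knockdown, against 51.2, 82.8 and 74.0 in control. Knockdown replicate 3 was the low array, and without it the log2 fold change of -0.29 was 0.034. The dimmer 243904_at of STXBP5 read 86.4, 48.3 and 55.8 in knockdown, against 41.4, 21.1 and 42.7 in control, which did not overlap (0.41, adjusted p = 0.751). All 4 probe sets of STXBP4 lay below 0, its brightest at -0.028.

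By compartment, 4 of the 10 plasma membrane genes lay above 0 on their brightest probe set (median -0.033), 4 of the 8 of endosomes and trans-Golgi (median -0.0046) and 3 of the 9 of ER and Golgi (median -0.030), against 50.8% of all genes and a median of 0.0029. By subfamily the medians ran from -0.11 for the 3 other syntaxin-binding proteins to 0.12 for the 4 disassembly proteins. The 9 VAMP7 partners had a median of -0.11 on their brightest probe sets, with 3 above 0 and 6 below. Over all 25 of their probe sets the median was -0.0395, with 11 above 0 and 14 below. None of these groups held a probe set past the adjusted threshold.

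Probe sets of the same gene often disagreed in sign. Of the 31 genes with more than 1 probe set, 3 (STX17, NAPA and NAPB) lay above 0 on all of them, 10 lay below 0 on all, and 18 were mixed. Among 23 genes with at least 2 probe sets at or above the median, 12 kept to one side and 11 did not. No such count over all genes is given here, so the disagreement is not read as particular to these genes.

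The R-SNAREs other than VAMP7 and further SNARE regulators, 17 genes that were all measured, gave 0 calls in either direction. On their brightest probe sets 10 lay above 0 and 7 below. On these probe sets the endosomal R-SNARE VAMP8 was the single gene with an unadjusted p under 0.05, which is 5.88% of the 17, against 5.92% of all genes. It averaged 157 in knockdown and 242 in control (log2 fold change -0.49, adjusted p = 0.63 in limma).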

How the data were processed

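The deposited intensities are linear, with 54675 probe sets on each of 6 arrays. After leaving out 2% at each end, each array had a mean of 500.07, which shows scaling by the authors to a common target. The submitters' processing notes name RMA, whose log2 output with equal distributions these deposited intensities are not, and the software and background correction were not given in the sources used here. Without detection calls, precision is limited by the number of arrays. Here 62 array controls were left out, and log2(intensity + 50) was tested over 54613 probe sets with limma 3.58.1 (R 4.3.3; lmFit, eBayes, Benjamini-Hochberg adjustment, called at an adjusted p under 0.05). The offset understates changes, most of all those of probe sets of low intensity. With 3 arrays a group, the smallest two-sided p of an exact permutation test is 0.1.

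Names came from the platform annotation, updated through gene identifiers to the table of GRCh38.p14; all 38 genes matched, and no probe set naming several genes held one. Values in every array are given for the VAMP7 partners, for 2 genes of smallest unadjusted p in each subfamily, and for genes with probe sets on opposite sides of 0 of which 1 had an unadjusted p under 0.05; a few other genes were added after their values were seen. Members, lists and rules were chosen with earlier results of these data known. The code was tested on simulated data. Replicate numbers are those of the titles, since the descriptions of all 3 knockdown arrays give number 1. By these numbers, same-numbered arrays did not deviate together (correlations -0.0098, 0.0069 and -0.017), so the replicate number entered only as an alternative. Alternatives covered offsets, dim probe sets, probe set choice, scaling, eBayes options, array weights, the replicate block and leaving out each array.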

Additional observations from a re-analysis of the deposited data

How the results depend on the processing

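The count of Q-SNARE and regulator probe sets called was 0 under all 17 alternatives, with a lowest adjusted p from 0.404 to 0.791. At an unadjusted p under 0.05 there were 6 to 12 where all 105 were tested (5.71% to 11.4%, against 6.04% to 7.26% of all probe sets), 9 and 11 of the 86 at or above the median (10.5% and 12.8%, against 8.12% and 8.54%), and 3 and 2 of 38 with 1 value per gene (7.89% and 5.26%, against 6.66% and 6.28%). The lowest, 0.404, came among probe sets at or above the median with an intensity trend, chosen after seeing the data. VAMP7 stayed below 0 and past the threshold throughout (-3.96 to -3.42, adjusted p up to 0.0295). That highest value came with the replicate number as a block, where the log2 fold change was -3.71. The block changed no call, and NAPB then had an adjusted p of 0.791. The median of the 105 was -0.060 with median centring, which moved the median of all probe sets to -0.027, and -0.013 to 0.013 when any 1 array was left out.

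Of 743 values of single genes under these alternatives, 701 kept their sign and 42 turned, all for values that no test had called. The cause was not tested. The 701 overstate stability, since the intensity filter, 1 probe set per gene, the intensity trend and the replicate block cannot change a fold change. The 743 also hold 9 less bright probe sets chosen for an unadjusted p under 0.05 in limma, none of which turned. When the probe sets of each gene were averaged, VTI1A was at 0.0076, SNAP25 at -0.22, NSF at -0.022, STX2 at -0.074, GOSR2 at -0.014, NAPG at 0.092, STX12 at 0.029, SCFD1 at 0.078 and STXBP5 at 0.029. With median centring GOSR1 was at -0.010, STX7 at -0.029, STX6 at -0.010, STX2 at -0.014 and GOSR2 at -0.027. With quantile normalization STX7 was at -0.012 and GOSR2 at -0.024, and with array weights STXBP3 was at 0.0065 and VTI1A at 0.017. When any 1 array was left out, STX1A ran from -0.035 to 0.21, STX2 from -0.021 to 0.088, STX6 from -0.027 to 0.087, STX7 from -0.040 to 0.073, SNAP23 from -0.16 to 0.046, SNAP25 from -0.087 to 0.30, VTI1A from -0.080 to 0.053, BET1 from -0.051 to 0.022, BET1L from -0.12 to 0.035, GOSR2 from -0.048 to 0.077, SCFD1 from -0.13 to 0.013, SCFD2 from -0.27 to 0.0028, STXBP3 from -0.13 to 0.071, STXBP4 from -0.16 to 0.072 and STXBP5 from -0.54 to 0.034. Of the 36 genes on a brightest probe set at or above the median, 15 thus turned sign and 18 kept it but moved by over 1.5 times. The other 3 (NAPB, STX16 and USE1) moved less. These 3 also had the smallest unadjusted p of the 36 in limma (0.0101, 0.0593 and 0.0302). Both come from the same arrays, so their stability is no separate support. A ratio of 1.5 also marks small values, as SNAP47 ran only from -0.044 to -0.015. Dim probe sets limit what can be read: STX11 and STX19 had none at or above the median.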
